A study of Scophthalmus maximus with 8 samples.

Results

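Accessible chromatin was compared between the post-metamorphic stage (37dph, days post hatching) and the climax of metamorphosis (23dph) of turbot (Scophthalmus maximus). The compared items were all 46248 peaks of the 37dph list and all 47853 peaks of the 23dph list, that is 94101 of the 246426 peaks of the 4 stages studied by ATAC-seq. The other stages are the pre-metamorphic larva (15dph) and the phylotypic embryo (3dpf, days post fertilisation). Peaks of both stages that overlapped by at least 1 bp were linked. A 37dph peak without a linked 23dph peak is called gained, a 23dph peak without a linked 37dph peak is called lost, and all linked peaks are called kept. Both groups were turbot with no genotype or treatment named. In both, the tail end, from the cloaca on, was discarded and the remaining tissue was dissociated into single cells with collagenase. Each stage had 2 biological replicates, for which fish were collected until there were enough cells, and 1 list of peaks reproducible between the replicates was deposited for each stage. The 23dph list is tied to its stage by the labels of both 23dph samples, although its name carries another day number. The tissue is a mixture of many cell types, so fewer cells of a type and less open chromatin per cell cannot be told apart. The lists hold no gene or cell type measurement against which the labels could be checked.

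In ATAC-seq, the Tn5 transposase inserts adapters where DNA is not wrapped in nucleosomes, and a peak marks a stretch with many insertions, such as an active promoter or enhancer. Flatfish metamorphosis, which is driven by thyroid hormone, takes a free-swimming fish with ordinary left and right sides to a flat fish that rests on one flank. The skull twists as an eye shifts across it, and skin pigment and muscle are remodelled. At climax this remodelling is under way, and in the juvenile it is complete. A peak that is absent from a list was not called reproducibly at that stage, which does not show that the chromatin was closed.

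Since there was 1 list per stage, no value per replicate was analysed and no error between replicates or p-value between the stages can be given. Intervals are 95% Wilson intervals for shares and binomial intervals for medians. They treat peaks as independent and cover counting error only. The read depth behind each peak is not part of the lists. According to the study's methods, each post-metamorphic library had more mapped reads than either climax library, and post-metamorphic tissue was digested longer in collagenase. The part of depth and of digestion in the results was not tested, and digestion time cannot be told apart from stage.

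Most accessible sites were shared by the climax and the juvenile. At 37dph, 12136 of 46248 peaks were gained, a share of 26.2% (25.8 to 26.6), and 34112 were kept. At 23dph, 14390 of 47853 peaks were lost, a share of 30.1% (29.7 to 30.5), and 33463 were kept. Gained peaks covered 2.58 Mb of the 11.1 Mb in 37dph peaks, and lost peaks covered 3.88 Mb of the 13.2 Mb in 23dph peaks. The covered length that was lost was therefore larger than that gained, by more than the peak counts differed. The 23dph peaks were wider as a whole, with a median of 238 bp, against 204 bp at 37dph. Lost peaks held 29.3% of the length of their list and gained peaks 23.3%, in each case less than their share of the peaks.

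The linked peaks overlapped widely. In 57.7% of the 34338 links the narrower peak lay wholly inside the wider one, and in 99.6% at least 50% of the narrower peak was covered. Only 25 links rested on an overlap of 10 bp or less. Just outside the limit lay 10 gained peaks and 11 lost peaks that ended within 10 bp of a peak of the other list. Within 100 bp of the other list's nearest peak were 1073 gained peaks (8.84%) and 734 lost peaks (5.10%).

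Gained and lost peaks were mostly weak peaks of their lists. The median fold enrichment over local background was 3.84 in gained peaks and 5.22 in kept peaks of 37dph. At 23dph it was 3.87 in lost peaks and 5.19 in kept peaks. Ranked by the −log10 p of the peak caller, 12.2% of the gained peaks and 63.4% of the kept ones stood in the stronger part (upper 50%) of the 37dph list. In the 23dph list the same part held 13.5% of the lost peaks and 65.7% of the kept ones. In the strongest decile, 11 of 4625 37dph peaks were gained (0.238%) and 1 of 4786 23dph peaks was lost (0.0209%). In the weakest decile, 66.0% of 37dph peaks (64.7 to 67.4) were gained and 69.3% of 23dph peaks (68.0 to 70.6) were lost. A global irreproducible discovery rate (IDR) of at most 0.01 was reached by 32.9% of gained and 80.0% of kept 37dph peaks, and by 28.7% of lost and 80.5% of kept 23dph peaks.

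A few strong sites were called at only 1 of the compared stages. The strongest gained peak lay on chromosome 4 from 940299 to 940577, was 279 bp wide, and ranked 1050 of 46248 with a −log10 p of 46.8. Its nearest 23dph peak was 1286 bp away. The next were on chromosome 1 from 23407691 to 23407896 (−log10 p of 43.9), where a 23dph peak lay 261 bp away, and on chromosome 19 from 6501471 to 6501678 (−log10 p of 41.7), 1379 bp from the nearest 23dph peak. All 3 overlapped a 15dph peak, and those on chromosomes 4 and 1 also a 3dpf peak. Positions are 1-based on the ASM1334776v1 assembly, and the genes and bases at these sites were not analysed here.

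The strongest lost peak lay on chromosome 18 from 9531085 to 9531303, was 219 bp wide, and ranked 4570 of 47853 with a −log10 p of 38.8. The nearest 37dph peak was 10746 bp away. A second one on chromosome 18, from 16941104 to 16941319, had a −log10 p of 38.1 and lay 6088 bp from the nearest 37dph peak. The third, on chromosome 9 from 25516709 to 25516931 with the same −log10 p, lay only 29 bp from a 37dph peak, so it counts as kept where gaps of up to 100 bp are bridged. All 3 overlapped peaks at both 15dph and 3dpf.

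Gained peaks were narrow, whereas lost peaks had nearly the width of kept ones. Gained peaks had a median width of 177 bp (176 to 178), and kept 37dph peaks one of 212 bp (211 to 213). Lost peaks had a median width of 243 bp (241 to 245), and kept 23dph peaks one of 236 bp (235 to 238). Among the strongest 50% of each list, linked anew, gained peaks were again narrower (183 bp, against 230 bp for kept ones), but lost peaks were not wider (252 bp, against 254 bp). The quartiles were 152 and 249 bp for gained peaks and 177 and 285 bp for kept 37dph peaks. For lost peaks they were 189 and 325 bp and for kept 23dph peaks 191 and 327 bp, so that lost peaks were wider at the median but not at the quartiles. Among 37dph peaks of 100 to 124 bp, 69.9% were gained, against 16.2% of those of 200 to 224 bp, and 4.82% of those of 800 bp or more. Among 23dph peaks the lost share was 56.4% at 100 to 124 bp and 26.6% at 200 to 224 bp. It was again higher, at 36.4%, at 300 to 324 bp, and was 12.5% at 800 bp or more.

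**Figure D1:**
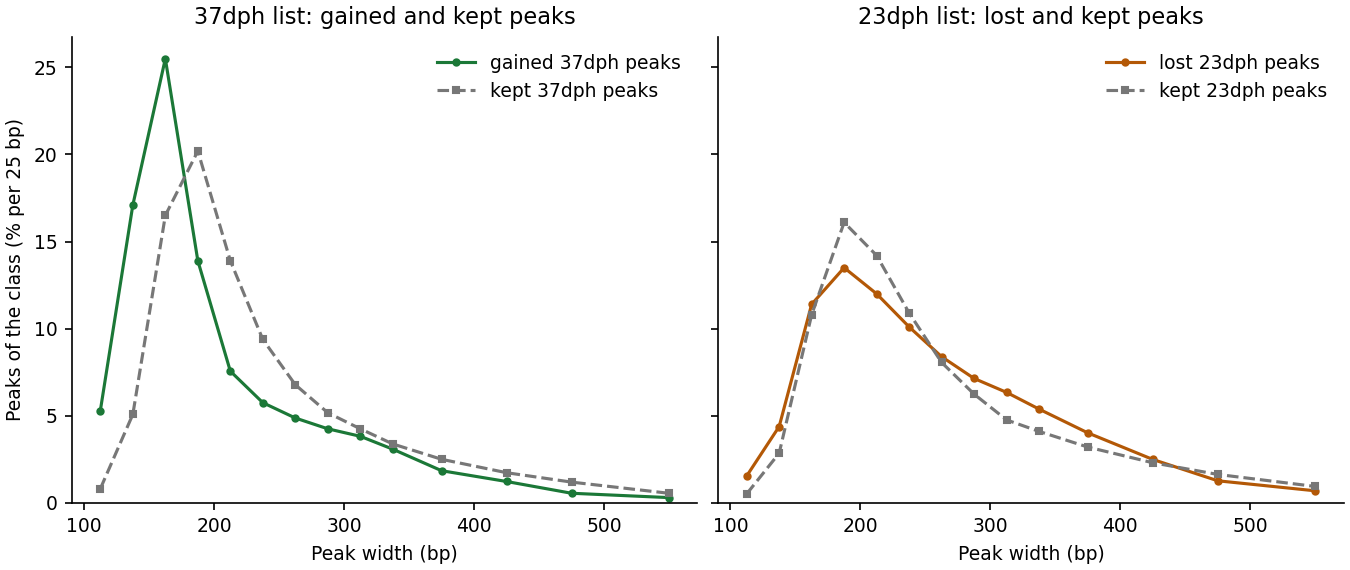
Peak width (x axis, bp, up to 599 bp) against the share of each class per 25 bp of width (y axis, %), for gained and kept 37dph peaks on the left and lost and kept 23dph peaks on the right, over bins of 25 to 100 bp. Gained peaks pile up at 150 to 174 bp (25.5% of the class, against 16.5% of kept 37dph peaks), whereas lost peaks are the more frequent class from 250 to 449 bp and below 175 bp.

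Widths were then compared among peaks of like strength. Each list was divided into 5 equal classes of −log10 p, with class 1 the strongest. In class 4, gained peaks had a median width of 173 bp (171 to 175) and kept 37dph peaks one of 189 bp (186 to 192). Lost peaks of class 4 in the 23dph list had a median width of 244 bp (240 to 247), and kept ones one of 198 bp (196 to 201). Over classes 1 to 5, the median of gained minus that of kept peaks lay between -45 and -13 bp. Over classes 2 to 5, the median of lost minus that of kept peaks lay between 38.5 and 48 bp. Class 1 of the 23dph list held only 76 lost peaks, whose median of 276.5 bp (237 to 303) was not separated from the 288 bp of the kept ones.

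In the weaker classes both shares differed with width at a given strength. In class 4 of the 37dph list the gained share was 46.7% (45.2 to 48.2) at 100 to 174 bp, 39.5% at 225 to 299 bp and 29.7% at 400 bp or more. In class 4 of the 23dph list, 33.2% (31.3 to 35.2) of peaks of 100 to 174 bp were lost, against 61.8% (59.6 to 63.9) of those of 225 to 299 bp and 50.3% of those of 400 bp or more. In class 3 the lost share was 14.2% at 100 to 174 bp, 36.1% at 225 to 299 bp and 30.8% at 400 bp or more. In classes 3 and 4 peaks of 100 to 174 bp were thus gained more often, and lost less often, than those of 400 bp or more. In class 1 both shares were lower at 400 bp or more than at 100 to 174 bp, where few peaks stood. The gained share was 4.39% (5 of 114, 1.89 to 9.86) at 100 to 174 bp and 0.347% at 400 bp or more. The lost share was 11.8% (2 of 17, 3.29 to 34.3) at 100 to 174 bp and 0.420% at 400 bp or more. Between these widths the fall was not steady, with 0.319% gained and 0.727% lost at 225 to 299 bp and 0.743% gained and 0.911% lost at 300 to 399 bp.

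**Figure D2:**
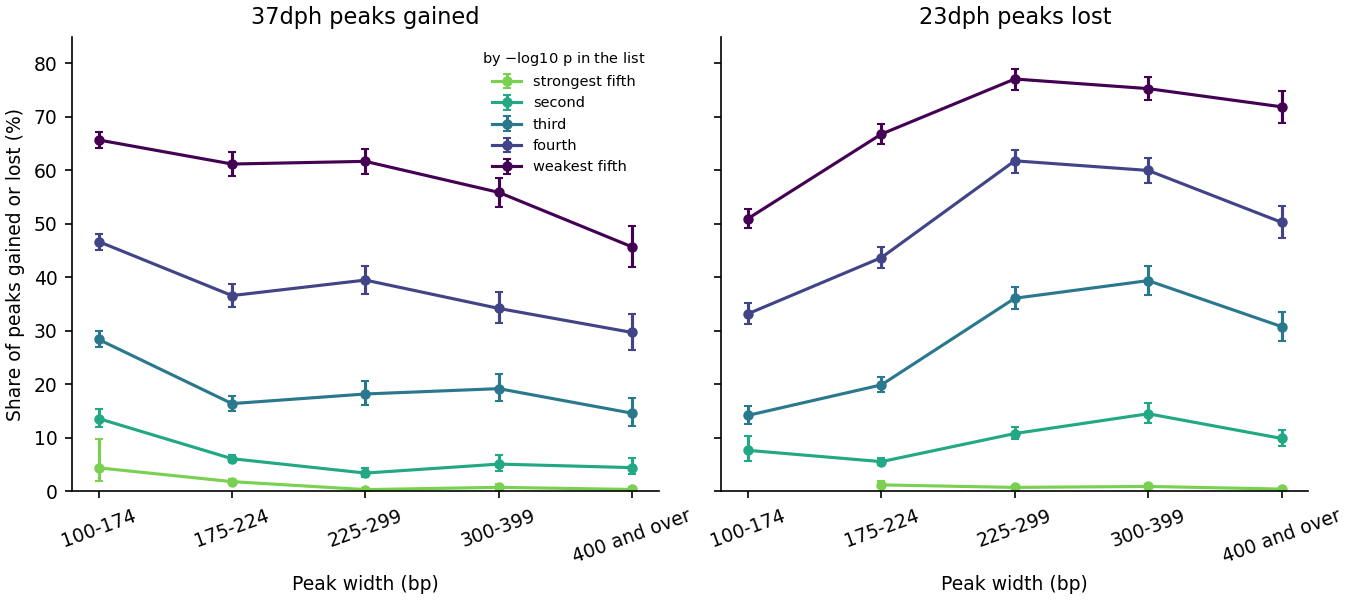
Share of 37dph peaks gained (left) and of 23dph peaks lost (right) on the y axis (%), by peak width class (x axis, bp) and by strength class within the list (lines, strongest to weakest), with 95% Wilson intervals and only groups of at least 100 peaks. In the weakest class the gained share is 65.7% at 100 to 174 bp and 45.7% at 400 bp or more, while the lost share is 51.0% at 100 to 174 bp and 77.1% at 225 to 299 bp.

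The widest gained peak was in the mitochondrial genome (3155 bp). It was weak, ranked 42674 of 46248 by −log10 p, with a fold enrichment of 1.58, equal to the lowest of the 37dph list. It overlapped a 15dph peak. The next were 890 bp on chromosome 3 from 23470288 to 23471177, 142 bp from a 23dph peak, and 852 bp on chromosome 12 from 6570222 to 6571073. At the site on chromosome 12 there was no peak at 15dph or 3dpf, as for 44.0% of all gained peaks. The 3 widest lost peaks measured 1244 bp (chromosome 11 from 2665994 to 2667237), 1153 bp (chromosome 14 from 12580683 to 12581835) and 1089 bp (chromosome 13 from 8851358 to 8852446). These lost peaks were weak, with −log10 p values from 12.2 to 15.2, and all 3 overlapped peaks at both 15dph and 3dpf. Of the whole classes, 47.5% of lost and 87.5% of kept 23dph peaks overlapped both. The one on chromosome 13 lay 42271 bp from the nearest 37dph peak.

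Lost peaks were also the more isolated ones. The median gap to the nearest peak of the same list was 2230 bp for gained and 1553 bp for kept 37dph peaks. It was 3242 bp for lost and 1750 bp for kept 23dph peaks. At gaps over 50000 bp 43.9% of 37dph peaks were gained (38.7 to 49.3), and at gaps under 500 bp 22.1% (21.5 to 22.8). Applying the gained share of each strength decile of the whole list to these peaks gives 41.8% at gaps over 50000 bp and 22.8% at gaps under 500 bp, close to the measured shares. Where the nearest 23dph peak was under 500 bp away, 22.5% of 23dph peaks were lost (21.8 to 23.3). At gaps of 20000 to 50000 bp the lost share was 54.4% (51.8 to 56.9), and at over 50000 bp it was 64.7% (58.4 to 70.5). Isolated 23dph peaks were weaker, with a median −log10 p of 12.4 at gaps over 50000 bp and 18.6 at gaps under 500 bp. Their strength deciles give a lost share of 43.4% at gaps over 50000 bp and 26.4% at gaps under 500 bp.

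The shares also differed with the number of other summits of the same list within 10000 bp. Of 37dph peaks, 33.3% were gained with no such neighbour, 24.9% with 3 to 5, and 27.3% (25.9 to 28.9) with 6 to 9, the last above the 23.3% that their strength gives. Of the 23dph peaks with no such neighbour, 45.4% (44.1 to 46.6) were lost, against 35.4% from their strength. Of those with 6 to 9 neighbours, 21.0% (19.3 to 22.9) were lost, against 28.4% from their strength. Lost peaks lay further from the other list than gained ones did. The median gap from a gained peak to the nearest 23dph peak was 2360 bp, and that from a lost peak to the nearest 37dph peak was 4046 bp. Within 10000 bp of the other list lay 87.0% of gained and 76.4% of lost peaks.

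Along the chromosomes, lost peaks followed each other more often than gained ones did. Of the 37dph peaks that came directly after a gained peak on the same sequence, 28.6% (27.8 to 29.4) were gained, and of those after a kept peak 25.4% (24.9 to 25.9). Their strength deciles give 27.5% after a gained and 25.8% after a kept peak. Within the weaker part (lower 50%) of the 37dph list, 48.4% (47.2 to 49.7) were gained after a gained peak and 45.2% (44.4 to 45.9) after a kept one. Within its stronger part the shares were 7.04% (6.41 to 7.73) after a gained peak and 6.20% (5.85 to 6.57) after a kept one, and these intervals overlap. When the strongest 50% of both lists were linked anew, 23.1% were gained after a gained peak and 23.3% after a kept one. The share after a gained peak was thus not higher there. Nor was a difference beyond the counting interval seen at an IDR of at most 0.01, with 24.0% after a gained peak and 23.6% after a kept one. Of the 23dph peaks after a lost peak, 38.2% (37.4 to 39.0) were lost, and of those after a kept peak 26.6% (26.1 to 27.1). For these, strength gives 33.3% after a lost and 28.7% after a kept peak. Within the weaker part (lower 50%) of the list the shares were 59.9% after a lost peak and 48.1% after a kept one. Within the stronger part they were 10.8% after a lost peak and 7.15% after a kept one. These parts do not match strength closely. Over the deciles of the weaker parts the gained share ran from 26.0% to 66.0% and the lost share from 31.7% to 69.3%. At an IDR of at most 0.01 the shares for losses were 29.1% after a lost peak and 22.8% after a kept one.

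The gained share at gaps under 500 bp was 29.1% after a gained and 20.9% after a kept peak. Between 1000 and 2000 bp it was 25.5% after a gained and 27.9% after a kept peak, so that the order was not the same at all distances. Lost peaks followed lost peaks more often than kept ones in each of the 7 classes of distance up to 50000 bp. At gaps under 500 bp, 32.5% (30.2 to 34.9) of the peaks after a lost peak and 18.9% of those after a kept peak were lost. At 20000 to 50000 bp the lost share was 43.7% after a lost and 36.3% after a kept peak. Beyond 50000 bp it was 51.0% (47.4 to 54.7) after a lost and 48.1% (44.6 to 51.6) after a kept peak, and these intervals overlap.

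Runs of successive peaks of a class were longer among lost peaks. The gained peaks formed 8665 runs, of which 28 held 6 or more peaks (1.46% of gained peaks). The lost peaks formed 8892 runs, of which 119 held 6 or more (5.75% of lost peaks). Of the whole lists, 26.2% of 37dph peaks were gained and 30.1% of 23dph peaks lost. A higher share by itself makes runs longer, and its part in this difference was not tested. Of single gained peaks 58.1% (56.9 to 59.3) overlapped a peak of 15dph or 3dpf, and of those in runs of 6 or more 46.3% (39.1 to 53.7). Gained peaks in such runs were also weaker, with a median −log10 p of 9.65, against 11.1 when single. The part of strength in this difference was not tested. The median width of lost peaks was 236 bp when single and 262 bp in runs of 6 or more, and their median −log10 p was 11.9 when single and 11.3 in such runs. Of the single lost peaks 79.4% (78.3 to 80.4) overlapped a peak of 15dph or 3dpf, and of those in runs of 6 or more 76.7% (73.7 to 79.4).

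The longest runs of gained peaks held 9 on chromosome 15 (22430942 to 22828117), 8 on chromosome 8 (8778918 to 8849352) and 8 on chromosome 12 (2465756 to 2538465). The 23dph list held 8 peaks in the span on chromosome 15, 6 in that on chromosome 8 and 2 in that on chromosome 12. Of the 9 gained peaks on chromosome 15, 5 had no peak at either earlier stage. These 9 peaks were weak, with a median −log10 p of 7.96. Of all gained peaks 44.0% had no earlier peak, and of those in the weakest of 5 equal strength classes 55.6%. The longest run of lost peaks held 12 and spanned 785 kb of chromosome 13, from 23575894 to 24361310, with widths between 155 and 461 bp. The 37dph list had 6 peaks within that span, which by definition lie between the lost peaks. A run of 11 spanned 460 kb of chromosome 5 from 23989374 to 24449674, where the 37dph list held 3 peaks, with 10 of the 11 on a 15dph peak and 10 on a 3dpf peak. Such overlap was common in the whole 23dph list. A 15dph peak was overlapped by 60.2% of all lost and 94.5% of kept 23dph peaks, and a 3dpf peak by 65.9% of lost and 90.4% of kept ones. There were 6 runs of 10 lost peaks. The one with the shortest span, by which it was chosen, took up 65.0 kb of chromosome 8 from 7501750 to 7566785. It was free of 37dph peaks, had a median width of 403 bp and −log10 p values between 9.44 and 24.6, and each of its peaks overlapped an earlier peak. Of all lost peaks, 21.4% overlapped no earlier peak.

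**Figure D3:**
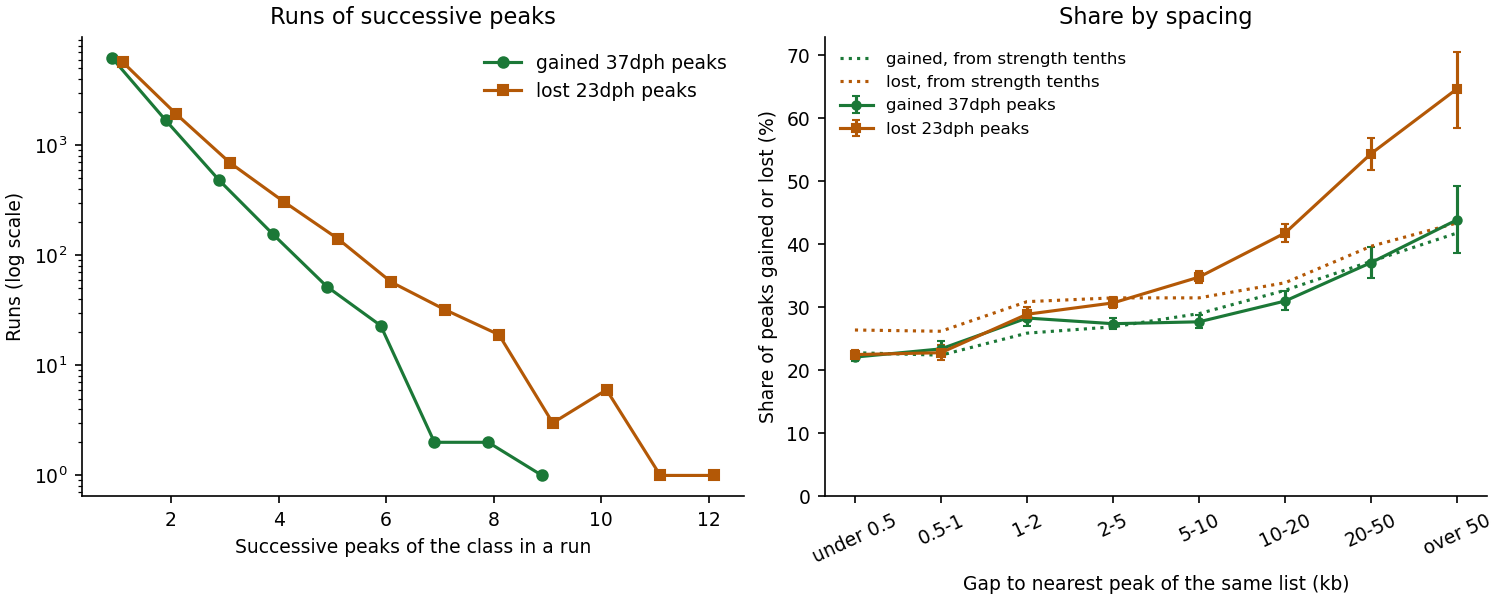
Left, number of runs (y axis, log scale) by the number of successive gained 37dph peaks or lost 23dph peaks in the run (x axis). Right, share of 37dph peaks gained and of 23dph peaks lost (y axis, %, with 95% Wilson intervals) by the gap to the nearest peak of the same list (x axis, kb), with dotted lines for the share that the strength deciles give. Lost runs reach 12 peaks and gained runs 9, and the lost share passes its dotted line from 5 kb on, up to 64.7% against 43.4%.

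Over the chromosomes, the lost share covered a wider range than the gained share. On the 22 numbered chromosomes the gained share lay between 23.5% (chromosome 4, 22.0 to 25.1) and 29.9% (chromosome 2, 28.0 to 31.9). The lost share lay between 23.6% (chromosome 19, 21.9 to 25.5) and 36.2% (chromosome 5, 34.4 to 38.2). The standard deviation over the 22 chromosomes was 1.56 percentage points for the gained and 2.47 for the lost share. After chromosome 5, the highest lost shares were on chromosome 3 (33.3%) and on chromosomes 13 and 14 (32.6% each). After chromosome 19, the lowest were on chromosome 17 (27.6%) and chromosome 9 (28.3%). The highest gained shares after chromosome 2 were on chromosome 16 (28.2%) and on chromosomes 14 and 22 (28.1% each), and the lowest after chromosome 4 on chromosome 7 (23.9%) and chromosome 19 (24.3%).

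Chromosome 5 combined the highest lost share with a gained share of 25.2% (23.4 to 27.1), below that of the whole list. It held 2137 peaks at 37dph and 2456 at 23dph. The strength of its peaks gives a gained share of 27.4% and a lost share of 31.5%, so that the gained share lay below and the lost share above what strength gives, with intervals that do not reach it. Chromosome 19 was the most densely covered, with 106 peaks per Mb at 37dph and 103 at 23dph, and chromosome 5 among the sparsest, with 69.1 at 37dph and 79.5 at 23dph. On chromosome 19 the gained share of 24.3% was close to the 24.4% from strength, while the lost share was below the 27.5% that strength gives. Both chromosomes were picked as the extremes of the lost share. Their intervals treat peaks as independent, although lost peaks followed each other along the chromosomes. The intervals are therefore no test of either chromosome. On each of the 22 chromosomes the median log2 width ratio of linked pairs lay between -0.10 and -0.07.

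**Figure D4:**
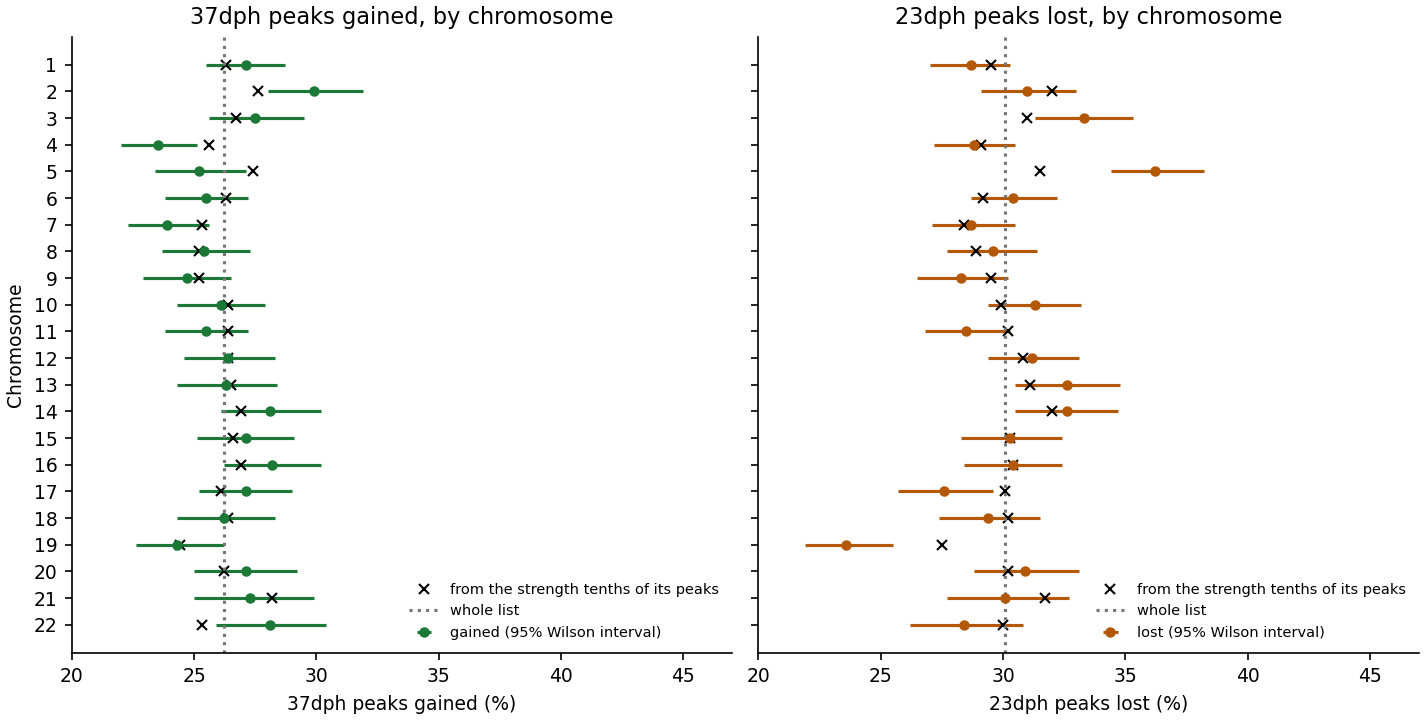
Share of 37dph peaks gained (left) and of 23dph peaks lost (right) on the x axis (%), for chromosomes 1 to 22 (y axis), with 95% Wilson intervals, the share that the strength deciles of each chromosome's peaks give (crosses) and the share of the whole list (dotted line). Chromosome 5 stands at 36.2% lost and chromosome 19 at 23.6%, both beyond their crosses.

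The place along the chromosome was also described, without a test. Pooled over the numbered chromosomes, the gained share was 28.5% (27.2 to 29.8) in the first 10% of the length and 29.0% (27.7 to 30.3) in the last 10%, against 24.0% (22.8 to 25.2) between 30% and 40%. Strength gives 26.6% in the first 10%, 26.7% in the last 10% and 25.3% between 30% and 40%. The lost share was 29.2% in the first 10%, 28.8% in the last 10% and 30.7% between 30% and 40%, with its lowest value of 28.1% between 50% and 60% and its highest of 32.6% between 80% and 90%. For the lowest, strength gives 29.1%, within the interval of 27.0 to 29.3. For the highest it gives 31.3%, within the interval of 31.1 to 34.1. In windows of 1000000 bp with at least 30 peaks, the gained share ranged from 7.14% to 48.3% with a 95th percentile of 36.7%, and the lost share reached 55.6% with a 95th percentile of 44.5%. The window with the highest gained share was on chromosome 15 from 22000001 to 23000000, with 43 of 89 peaks gained. That with the highest lost share was on chromosome 8 from 24000001 to 25000000, with 25 of 45 lost, followed by chromosome 1 from 24000001 to 25000000 with 42 of 76 (55.3%). The lowest lost share was at the start of chromosome 8, from 1 to 1000000, with 12 of 109. Strength gives a gained share of 34.4% for the window on chromosome 15. It gives lost shares of 37.5% and 36.8% for the highest windows on chromosomes 8 and 1, and 20.1% for the start of chromosome 8. These windows were chosen after their values were seen, among 523 for gains and 530 for losses, and were not tested.

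Peaks that were linked one-to-one show how single sites changed. There were 32228 such pairs, 97.0% of the 33237 linked groups. The 37dph peaks of these pairs had a median width of 211 bp (210 to 212), and their 23dph partners one of 233 bp (232 to 234). The 37dph peak was narrower in 21598 pairs (67.0%, 66.5 to 67.5), wider in 10219 (31.7%) and of the same width in 411. The median log2 ratio of the 37dph width to the 23dph width was -0.092 (-0.095 to -0.089), a ratio of 0.938. The central 90% of pairs lay between -0.780 and 0.340, so the spread among pairs was several times the median change. In 888 pairs the 37dph peak had less than 50% of the 23dph width, and in 142 it was more than 2-fold wider.

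The difference in width was shared by both sides. The left edge of the peak stood further in at 37dph in 60.8% of pairs and the right edge in 61.0%, and each edge was 5 bp further in at the median (quartiles -6 and 21 bp for either). Over both edges the median loss was 14 bp. The 37dph peak lay inside the 23dph peak in 42.1% of pairs, and the 23dph peak inside the 37dph peak in 15.8%. In 42.2% both edges moved to the same side. Pearson's r between the moves of the left and right edges was -0.015 over the 32228 pairs, a description across sites that share their libraries.

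The width ratio depended on the width by which pairs were grouped. Grouped by the 37dph width, the median log2 ratio was -0.157 at 100 to 174 bp and 0.018 at 400 bp or more. Grouped by the 23dph width it was 0.035 at 100 to 174 bp and -0.251 at 400 bp or more. Either grouping selects on an endpoint of the ratio, and the trends are opposite. Grouped by the mean of both widths, the medians lay between -0.111 and -0.052 and were negative in all 5 classes. By strength (the mean of the 2 rank percentiles), the median ratio was between -0.108 and -0.081 in all 5 classes.

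Width moved with rank. Pairs whose 37dph peak stood over 25 percentile points higher in its list than the 23dph peak did in its own (3621 pairs) had a median log2 ratio of 0.052, and 36.9% of them were narrower. Pairs that stood over 25 points lower (4065 pairs) had one of -0.222, and 81.0% were narrower. In the 13735 pairs within 10 points, the median was -0.096 and 70.8% were narrower. The rank correlation between the stages was 0.788 (Spearman's rho) for width and 0.695 for −log10 p over the pairs.

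The most widened pair lay on chromosome 22, where the 37dph peak from 11698587 to 11699259 was 673 bp wide and the 23dph peak 154 bp. The next were 722 bp at 37dph and 179 bp at 23dph on chromosome 13 (37dph peak from 69197 to 69918), and 986 bp at 37dph and 266 bp at 23dph on chromosome 7 (15024537 to 15025522). The most narrowed pair lay on chromosome 8, with a 37dph peak of 155 bp from 6472532 to 6472686 inside a 23dph span of 965 bp that began at 6471729. Its summits were 5 bp apart. The others were 154 bp at 37dph and 831 bp at 23dph on chromosome 3 (10481359 to 10481512), and 187 bp at 37dph and 1008 bp at 23dph on chromosome 8 (6394838 to 6395024).

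Summits of linked peaks lay close together. The median distance between the summits of a pair was 10 bp (quartiles 3 and 29 bp), which was 4.23% of the 23dph width. The 37dph summit lay to the left in 46.9% of pairs, to the right in 46.6% and at the same base in 6.55%, and the median signed distance was 0 bp. Within 50 bp were 87.5% of pairs and within 100 bp 96.7%. The 37dph summit fell inside the 23dph peak in 99.7% of pairs. Linking by overlap itself keeps summits close, so these distances describe linked peaks and do not test whether positions change. The median distance was 6 bp in pairs with a mean width of 100 to 174 bp and 32 bp in those of 400 bp or more. It was 11 bp in the strongest and 13 bp in the weakest class of pairs, with a 90th percentile of 52 bp in the strongest and 83 bp in the weakest. Summits over 200 bp apart were found in 371 pairs (1.15%). The furthest on a chromosome lay at -716 bp (37dph minus 23dph position) on chromosome 3 (37dph peak from 7893281 to 7894368, 1088 bp wide, against 712 bp at 23dph) and at 712 bp on chromosome 11 (37dph peak from 19573133 to 19573891, 759 bp wide, against 1001 bp at 23dph).

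**Figure D5:**
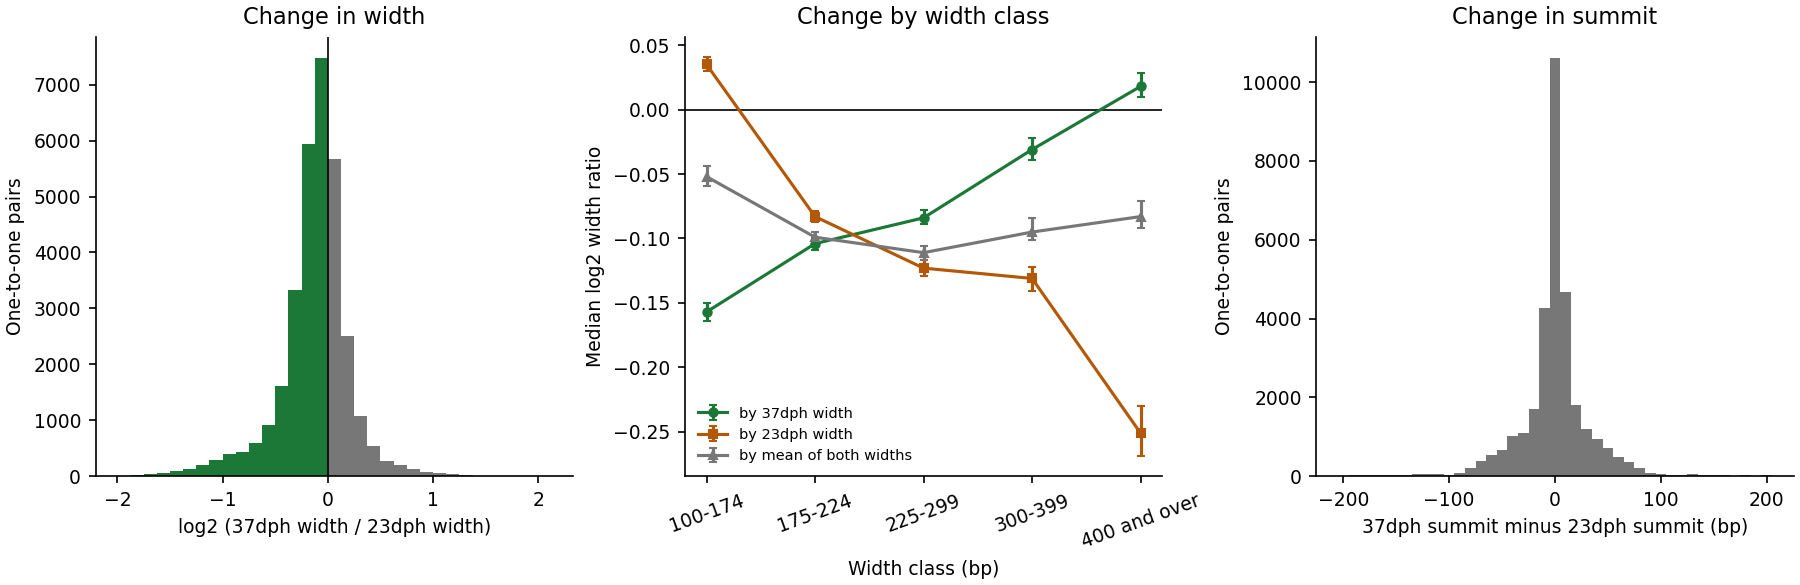
Left, number of one-to-one pairs (y axis) by the log2 ratio of 37dph width to 23dph width (x axis, green for narrower at 37dph, grey for equal or wider). Middle, median log2 ratio with 95% binomial intervals (y axis) by width class (x axis, bp), with pairs grouped by the 37dph width, the 23dph width or the mean of both. Right, pairs by signed summit distance (x axis, bp, in bins of 10 bp). The ratio is below 0 in 67.0% of pairs, and the summit distance is centred on 0.

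Splits of climax peaks outnumbered joins. A single 23dph peak overlapped 2 or more 37dph peaks, each linked to it alone, in 784 cases among 47853 peaks. A single 37dph peak joined 2 or more 23dph peaks in 179 cases among 46248 peaks. The 23dph peaks that were split had a median width of 535 bp, against 238 bp in the whole list, and 82.3% of them stood in the stronger part of the list. The 37dph parts had a median width of 212 bp and were separated by 54 bp at the median. The joined 37dph peaks had a median width of 522 bp, against 204 bp in the whole 37dph list. The 23dph list thus held the wider peaks, and the part of width in the excess of splits was not tested. Splits into 4 were found at 3 sites, which were picked out after the splits had been counted. On chromosome 7 these were a 782 bp peak from 1805634 to 1806415, whose 37dph parts were 166 to 262 bp wide, and an 862 bp peak from 13004238 to 13005099. The 862 bp peak had 37dph parts of 154 to 172 bp with gaps of 68 to 80 bp. On chromosome 19 a 1021 bp peak from 1869164 to 1870184 was split into parts of 149 to 297 bp.

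Gained and lost peaks were also set against the lists of the earlier stages. By definition gained peaks are absent at 23dph and lost peaks present there, the stage next to 15dph, so part of any difference in their overlap with earlier lists is built into the classes. The 3dpf list is longer than the 15dph list, and more peaks can overlap a longer list. It also came from whole embryos, whereas the tail end was discarded at 15dph. The shares at 3dpf and at 15dph are therefore not directly comparable, and the part of list length and tissue was not tested. Of the gained 37dph peaks, 44.0% (43.2 to 44.9) overlapped no peak at 15dph or 3dpf, 26.0% overlapped peaks at both, 13.9% at 15dph only and 16.1% at 3dpf only. Of the lost 23dph peaks, 21.4% (20.7 to 22.0) had no earlier peak, and 47.5% had one at both stages, 12.7% at 15dph only and 18.4% at 3dpf only. Of kept peaks, 87.4% at 37dph and 87.5% at 23dph overlapped peaks of both earlier stages. In strength class 3, 27.6% (25.7 to 29.6) of gained and 6.05% (5.19 to 7.05) of lost peaks had no earlier peak, and in class 5 the shares were 55.6% of gained and 33.0% of lost peaks. Of kept peaks in class 3, 2.49% at 37dph and 1.60% at 23dph had no earlier peak. In class 5 the shares of kept peaks were 9.71% at 37dph and 13.4% at 23dph. Gained peaks had median widths of 177 bp with peaks at both earlier stages and 179 bp without any. Lost peaks with peaks at both earlier stages had a median width of 255 bp, and those without any had one of 222 bp. The 5345 gained peaks and 3073 lost peaks with no other stage are the peaks found only at 37dph and only at 23dph.

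The step before, from the pre-metamorphic stage (15dph) to climax, was described in the same way. It shares the 23dph list, so its values are not independent, and differences between the steps were not tested. The earlier step covers fewer days than the later one. Gains at the earlier step were counted against the 15dph list, which is longer than the 23dph list used for gains at the later step. More peaks can overlap a longer list, so the gained shares of the steps are not directly comparable. The values for lost peaks come from the 15dph list at the earlier step and from the shorter 23dph list at the later one. They are not directly comparable either. The part of list length and of time in the values for gained and lost peaks was not tested. From 23dph to 37dph the gained share was 26.2%, and from 15dph to 23dph it was 15.8%. The lost shares were 30.1% at the later and 31.3% at the earlier step. Lost peaks had a median of 243 bp and kept ones 236 bp in the 23dph list at the later step, whereas at the earlier step lost peaks had 241 bp and kept ones 262 bp in the 15dph list. The median log2 width ratio of pairs was -0.092 at the later step and -0.070 at the earlier one, and narrower pairs made up 67.0% at the later and 65.1% at the earlier step. After a lost peak 38.2% were lost at the later step (26.6% after a kept one), and 36.7% at the earlier step (28.8% after a kept one). After a gained peak 28.6% were gained at the later step (25.4% after a kept one), and 20.1% at the earlier step (15.0% after a kept one). At the later step 830 23dph peaks overlapped several 37dph peaks, and 225 37dph peaks overlapped several 23dph peaks. Splitting also prevailed at the earlier step, where these counts were 1019 and 349.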

How the data were processed

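ATAC-seq was performed in 4 stages with 2 replicates each. The authors aligned reads with Bowtie2 to ASM1334776v1, took the Tn5 cut position from each read, used fragments without a nucleosome, called peaks with MACS2 and applied IDR to the replicates, giving 1 list per stage. The deposited lists give positions and summits in bp, a score derived from IDR, a fold enrichment ratio over local background, and a −log10 p per peak. A column of q-values was not used. The highest global IDR in either list was 0.1. Whether a peak's values come from pooled reads is not given in the sources used here, so fold enrichment and −log10 p depend on the libraries of a stage and were used mainly as ranks within a list.

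Linking used Python 3.11.15 with pandas 2.3.3, numpy 2.4.6, networkx 3.6.1 and scipy 1.17.1, and matplotlib 3.10.9 drew the figures. No list held overlapping peaks (0 cases). Counts of gained and lost peaks were checked with bedtools 2.31.1 and were equal. In tests of the code, 7 of 7 quantities were recovered. Counts of lost, gained, paired and split peaks were compared on simulated lists made from 47839 23dph sites. Links were also compared with a brute-force search on random intervals. The remaining quantities checked the counting of runs and not the linking. Width is end minus start, and summit is start plus offset. A share from strength is the mean, over the peaks concerned, of the share in each peak's −log10 p decile of the whole list.

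Named sites are the 3 most extreme by strength, width, run length (ties to the shorter span), width ratio, summit distance and chromosome share. The members, lists and rules were chosen with earlier results of these data known. Alternatives were the strongest 50%, equal list lengths, IDR limits of 0.01 and 0.05, and other linking rules. Genes and sequences at the peaks were not analysed here, because the gene table at hand is of another assembly.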

Additional observations from a re-analysis of the deposited data

How the results depend on the processing

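No paired analysis was possible because each stage has a single list for its 2 replicates, and no replicate could be left out. Keeping numbered chromosomes only changed no result beyond its interval. Fewer peaks remain by construction under stricter limits. The strongest 50% of each list gave 5369 gained, 6330 lost, 17755 kept 37dph and 17596 kept 23dph peaks, and an IDR of at most 0.01 gave 7419 gained and 7555 lost peaks. Counting only the strongest 50% of a list against the full other list, chosen after seeing the data, gave 1485 gained (6.42%) and 1942 lost peaks (8.12%). All other counts stayed within 1.5 times.

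The median log2 width ratio was negative under each of the 7 alternatives run. It was -0.099 in the strongest 50%, -0.096 at an IDR of at most 0.01, -0.087 with 50% overlap of both peaks and -0.097 with summits at most 100 bp apart. The median summit distance was 9 bp in the strongest 50%, at both IDR limits and with summits at most 100 bp apart. The share of lost peaks after a lost peak was 30.4% in the strongest 50%, 36.1% with equal list lengths, 29.1% and 34.5% at IDR limits of 0.01 and 0.05, 40.5% with 50% overlap and 40.3% by summits, each above the share after a kept peak (22.8 to 30.8%). The share of gained peaks after a gained peak was 23.1% in the strongest 50%, 24.0% and 26.1% at the IDR limits, 34.6% with 50% overlap, 31.4% by summits and 29.8% with 100 bp on each side of the summit. It did not exceed the 23.3% after a kept peak in the strongest 50%, and at an IDR of at most 0.01 the share after a kept peak, 23.6%, lay within its interval. In the strongest 50% the median width of lost peaks was also no longer above that of kept ones, with 252 and 254 bp. Lost peaks were wider than kept ones in each of the other alternatives, with 258 and 242 bp at an IDR of at most 0.01. Not all of these are separate checks. With 50% overlap of both peaks (254 and 232 bp) or summits at most 100 bp apart (251 and 233 bp), the rule itself can leave wide peaks unlinked. Keeping numbered chromosomes only took out just 14 of the 23dph peaks. Gained peaks were narrower than kept ones in all 9 alternatives compared. The cause of these shifts was not tested. The reads behind single peaks were not analysed here, and a site that is not in a list may be open below the limit of the peak caller.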

Other observations

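Some linked sites held very different places in the lists of the stages. They were chosen after their values were seen. On chromosome 11, the 37dph peak from 17455684 to 17456056 stood at percentile 96.8 of −log10 p in its list with a width of 373 bp, and the 23dph peak at percentile 1.65 of its own with 303 bp. On chromosome 4, the pair whose 37dph peak runs from 31429779 to 31429967 stood at percentile 88.1 at 37dph and 3.65 at 23dph. In the other direction, the pair on chromosome 7 with a 37dph peak from 20442446 to 20442732 stood at percentile 3.82 at 37dph, with a width of 287 bp, and at percentile 89.7 at 23dph, with 310 bp. On chromosome 15 the 37dph peak from 1743135 to 1743280 stood at percentile 3.55 with a width of 146 bp, and the 23dph peak at percentile 89.1 with 271 bp. Percentiles are ranks within each list, and the read signal at these sites was not analysed here.

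The mitochondrial genome, which carries no nucleosomes, held 2 peaks at 37dph and 1 at 23dph. Their widths were 3155 and 3175 bp at 37dph and 3485 bp at 23dph. Their fold enrichments were low, at 1.58 and 1.67 at 37dph and 1.92 at 23dph. The medians of the whole lists were 4.74 at 37dph and 4.63 at 23dph. The pair whose 37dph peak starts at 13597 had the furthest summits of all pairs, at -1095 bp (37dph minus 23dph position).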
